A study of Mus musculus with 8 samples.

Results

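The genes described are the hormones and receptors of the peptide YY and neuropeptide Y family: Pyy, Npy, Ppy, Npy1r, Npy2r and Npy5r. They were taken by gene symbol from the probe annotation of the arrays, which gave these 6 genes of 36083 names on the array, and 7 probes among 55681; Npy2r has 2 probes and each other gene has 1. The samples were total RNA of whole small intestine from mouse embryos at stage E18.5, hybridised to 8 single-colour arrays. The 4 control samples are wild type, Rfx6+/+. The 4 knockout samples, labelled Rfx6 KO, are Rfx6-/-, bred from heterozygotes that came from a floxed Rfx6 allele crossed to CMV-Cre mice, so the deletion is carried by the whole embryo and not by the gut alone. Strain, sex and whether a sample is 1 embryo or a pool are not stated, so p-values measure the spread between these samples. The comparison asks which genes depend on Rfx6, a transcription factor of endocrine cells.

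Peptide YY is a hormone of the enteroendocrine L cells, which are commonest in the distal gut and release it after a meal; it slows gut transit and curbs secretion and appetite. Neuropeptide Y is its relative in neurons, including enteric and sympathetic ones, and pancreatic polypeptide, the product of Ppy, comes mostly from the islets of the pancreas. Peptide YY is also made in the embryonic pancreas. The 3 peptides are cut from longer precursors at a basic site and amidated at the carboxy end, and they act on receptors that couple to inhibitory G proteins (Gi). Npy1r encodes the Y1 receptor, which binds neuropeptide Y and peptide YY. Npy2r encodes the Y2 receptor, the one preferred by peptide YY once it is shortened by dipeptidyl peptidase. Npy5r encodes the Y5 receptor, best known from feeding circuits of the brain.

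The probes of the 3 hormone genes are shown because each covers the site at which the hormone ends in its precursor, which the family shares. They are written in the direction of the transcript, and the capitals mark the codons for tyrosine, glycine, lysine and arginine at the amidation and cleavage site, which was found by translation in a frame with 0 stop codons.
Pyy: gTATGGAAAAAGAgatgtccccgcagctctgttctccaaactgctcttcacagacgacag
Npy: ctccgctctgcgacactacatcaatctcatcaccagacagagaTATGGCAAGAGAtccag
Ppy: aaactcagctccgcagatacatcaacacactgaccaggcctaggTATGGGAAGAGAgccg
Aligned on this site, the Npy and Ppy probes were identical at 35 of 59 bases, the Pyy and Ppy probes at 13 of 17 and the Pyy and Npy probes at 10 of 18. The longest run of bases that any 2 of these 60-base probes shared was 8, so the 3 hormones were read by distinct sequences.

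On mm9 the Pyy probe lies at chr11:101968311-101968370 on the minus strand, within 1 exon, and starts at base 224 of the transcript. The Ppy probe lies on the same strand at chr11:101961581-101961877, 6433 bases away, and no other annotated gene sits between both genes. It spans 297 bases of genome for its 60 bases, as does the Npy probe at chr6:49773743-49777505 over 3763, so both cross an intron. The Npy1r probe (chr8:69230632-69230691, plus strand) and the Npy5r probe (chr8:69204446-69204505, minus strand) are 26126 bases apart on opposite strands, again with 0 annotated genes between them. The Npy2r probes lie at chr3:82342675-82342734 and chr3:82343900-82343959 on the minus strand and start at bases 2931 and 1706 of the transcript.

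Signals are in scanner units after background subtraction. Levels are log2 of the signal over the 75th percentile of the same array, and a difference is the knockout mean less the control mean, also in log2. A probe is called well above background where the scanner software marks it so. A probe was tested with limma where every array of 1 group or of the other marked it so, and a gene was called at a Benjamini-Hochberg adjusted p under 0.05 over 23282 genes. Of the 6 genes, 2 passed this filter, Pyy and Npy1r; the limit lets a gene pass through 1 group alone, and both of these passed in both groups. Neither was called, against a background of 4.92% of all genes tested, 2.59% called lower and 2.33% called higher.

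An array had 57.5% to 67.1% of its probes well above background. The 75th percentile lay between 636 and 741 units, and the weakest signal marked as well above background lay between 35.1 and 37.6 on control arrays 2 and 4 and knockout array 1 and between 16.0 and 21.3 on the other 5 arrays. All arrays shared 1 slide and 1 scan. Row 1 of the slide held control array 1 and knockout arrays 2, 3 and 4, and row 2 the other 4. The Rfx6 probe, by 0.38 higher on the knockout arrays (SE 0.29, limma adjusted p 0.503), does not check the labels. All 7 markers of the intestinal epithelium passed the filter, with 1, Fabp2, called lower. Of the 8 stomach markers, 7 were called higher on the knockout arrays, beside 2.33% of all genes tested. These 7 passed the filter through the knockout arrays alone, so they could be tested only by being high there.

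Among the hormones, Pyy was strongly expressed in all controls and low in 3 of the 4 knockout samples. Its signal was 1477, 888, 1682 and 1463 on control arrays 1 to 4. On knockout arrays 1 to 4 it was 1973, 104, 104 and 108. Knockout array 1 thus stood above every control, while the other knockout arrays lay below every control, so the groups overlapped through 1 array. The probe was well above background on 8 of 8 arrays, and each of these values is a measured level.

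The controls had a mean Pyy level of 0.99 ± 0.45 (SD, n = 4). The knockout arrays had one of -1.66 ± 2.05 (SD, n = 4), a spread that comes from array 1. The difference of -2.65, a 6.29-fold lower mean, had an SE of 0.87 and a 95% interval from -4.62 to -0.69 (limma unadjusted p 0.0138, adjusted p 0.127). All 70 ways to divide the arrays were compared in an exact permutation test, two-sided, which gave p 0.143 and cannot go below 0.0286. Without knockout array 1 the difference was -3.68 (SE 0.23), or 12.8-fold (limma adjusted p 2.5e-04), and Pyy was then called lower. No other array changed the call when left out.

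The slide rows cut across this result. In row 1 the single control array stood at 1.16 and the mean of 3 knockout arrays at -2.69, a difference of -3.85. In row 2 the mean of 3 controls was 0.93 and the single knockout array, number 1, stood at 1.41, a difference of 0.48. With slide row as a block the difference was -1.69 (limma adjusted p 0.289). Pyy on knockout array 1 and slide row cannot be told apart from these arrays, since row 2 held no other knockout sample.

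**Figure D1:**
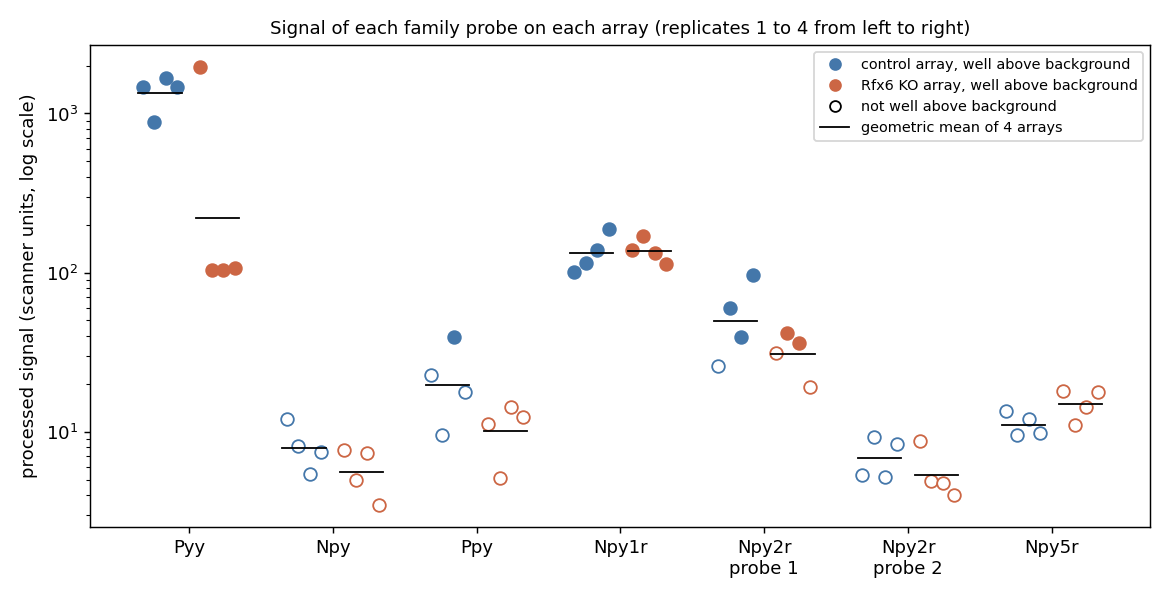
Processed signal (scanner units, log axis) of the 7 family probes on the 4 control (blue) and 4 Rfx6 KO (orange) arrays; filled points were well above background, open points were not, and lines are geometric means. Pyy is low on 3 knockout arrays, at 104 to 108, and at 1973 on the first, Npy1r overlaps between groups, and the Npy and Npy5r points are all open.

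Ppy, which sits beside Pyy, was near background. Its signal was 22.6, 9.56, 39.3 and 17.7 on control arrays 1 to 4 and was well above background on array 3 alone. The knockout arrays read 11.2, 5.11, 14.3 and 12.3, none of them well above background. The controls reached higher, but control array 3 was the only array of either group well above background. Measured against the weakest signal marked so, no fold can be given.

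Npy was not well above background on any of the 8 arrays. Its signal ran from 5.41 to 12.05 on control and from 3.47 to 7.69 on knockout arrays. Neurons were present in the samples: of 12 enteric neuron markers 11 passed the filter, 0 were called by limma (0 at an unadjusted p under 0.05), and their median difference was 0.06. Among 4 markers of sympathetic neurons, 3 passed and 0 were called by limma, though 1 had an unadjusted p under 0.05.

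Of the receptors, Npy1r was the one measured on every array. Its signal was 101, 115, 138 and 189 on control arrays 1 to 4 and 139, 170, 132 and 114 on knockout arrays 1 to 4. The groups overlapped throughout, with the lowest and the highest value both among the controls. The controls had a mean level of -2.36 ± 0.38 (SD, n = 4) and the knockout arrays one of -2.34 ± 0.21 (SD, n = 4). The difference of 0.02 had an SE of 0.19 and a 95% interval from -0.41 to 0.45 (limma adjusted p 0.967). A change within that interval is not excluded, and after adjustment over all genes a somewhat larger one could also go uncalled. The sign of the difference was negative under 5 of 20 other settings, and no direction is given. Blood vessels, whose muscle is a known site of the Y1 receptor, were followed with 4 endothelial markers: 4 passed and 0 were called by limma (0 at an unadjusted p under 0.05). Their summed signal was 11.8 to 14.1 times the 75th percentile of the array on control and 12.9 to 13.6 on knockout arrays. Most of that sum was Kdr, with a mean level of 3.38 on control and 3.35 on knockout arrays, so it says little of the other markers.

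Npy2r was well above background on some arrays with 1 probe and on none with the other. The first probe read 25.9, 59.9, 39.4 and 96.9 on control arrays 1 to 4 and was well above background on arrays 2, 3 and 4. It read 31.4, 41.9, 35.8 and 19.2 on knockout arrays 1 to 4 and was well above background on arrays 2 and 3. The groups overlapped: the highest values were on 2 control arrays and the lowest on a knockout array, but control array 1 lay below 3 of the knockout arrays. Control levels had a mean of -3.77 ± 0.77 (SD, n = 4) and knockout levels one of -4.49 ± 0.43 (SD, n = 4; exact permutation p 0.171), a difference of -0.72 within the spread. Without control array 1, the lowest control, the probe passed the filter through control arrays 2, 3 and 4 alone. The difference was then -1.02 (SE 0.32, limma adjusted p 0.172), not called. Since the probe entered through the higher group and its lowest control was dropped, this fit adds no separate evidence of a fall. The second probe ran from 5.19 to 9.26 on control and from 4.02 to 8.69 on knockout arrays, well above background on none, so the probes of this gene disagreed on this.

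The Npy5r signal ran from 9.50 to 13.5 on control and from 11.0 to 18.0 on knockout arrays, and 0 of 8 arrays were well above background. Without the filter Npy, Ppy, Npy2r and Npy5r enter the fit, and there 0 of the 4 were called, with limma adjusted p between 0.423 and 0.464 and 0 of 4 at an unadjusted p under 0.05. The order of levels within the family is not given, since signals of different probes are not on a common scale.

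None of the other receptors or the G proteins behind them was called. Npy4r, the receptor for pancreatic polypeptide, differed by -0.004 (SE 0.13). Npy6r, a related receptor gene, did not pass the filter, being well above background on 1 control and 2 knockout arrays. In the list of 7 that holds these and 5 inhibitory G protein alpha subunits, 6 were tested and 0 were called by limma; 1 had an unadjusted p under 0.05. The median difference was 0.02, beside -0.05 over all genes tested. Gnai1 was the nearest to a call at 0.29 (SE 0.09, limma adjusted p 0.123).

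Of the genes that make and break these peptides, 11 of 11 were tested, with a median difference of -0.04. Of these, 1 was called lower, beside 2.59% of all genes tested, and 10 were not called. The prohormone convertases Pcsk1 and Pcsk2, which cut the precursors at basic sites, differed by -0.12 and -0.14. Cpe, which trims the basic residues, differed by 0.12, and Pam, which amidates the glycine end, by 0.18. Dpp4, the dipeptidyl peptidase that makes the Y2-preferring form of peptide YY, differed by -0.04 (SE 0.09). None of these 5 was called. Mme, the brush border endopeptidase neprilysin, which degrades many small peptides, fell. Its levels were 1.97, 1.94, 1.81 and 1.93 on control arrays 1 to 4 and 0.77, 0.18, 0.90 and 0.34 on knockout arrays 1 to 4. The difference was -1.37 (SE 0.16, limma adjusted p 0.0020), and the call held under all settings tried. Neprilysin acts on many substrates, and the list's change is this 1 gene.

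**Figure D2:**
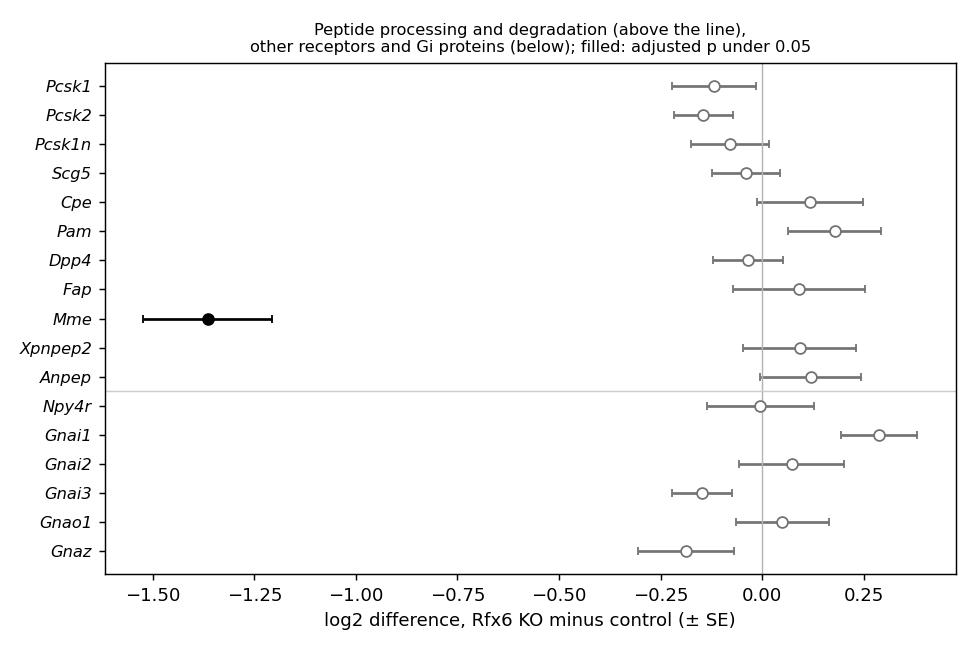
Log2 difference, knockout minus control, with standard error bars for the 17 tested genes of peptide processing and degradation (upper block) and of other receptors and inhibitory G proteins (lower block); filled points passed an adjusted p of 0.05. Mme at -1.37 is the 1 filled point, and the other 16 lie between -0.19 and 0.29.

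Pyy was set beside the other peptide genes of the L cell, since cells with peptide YY commonly make glucagon gene products, neurotensin or insulin-like peptide 5 as well. Of 10 genes in the list of L cell peptides and nutrient-sensing receptors, 8 were tested, with a median difference of -0.24. Of these, 3 were called lower and 0 higher, beside 2.59% lower and 2.33% higher over all genes tested. Gcg, which encodes proglucagon and thereby the glucagon-like peptides, stood at 2.04, 1.55, 1.97 and 1.67 on control arrays 1 to 4. It was not well above background on any knockout array, so it passed the filter through the controls alone. Measured against the weakest level marked as well above background, it fell at least 111-fold. No p-value is given, since its knockout levels are background readings. Nts, the neurotensin gene, stood between 2.74 and 3.19 on control arrays and at -3.86, -3.44, -3.88 and -3.36 on knockout arrays 1 to 4. Its difference was -6.57 (SE 0.16, limma adjusted p 7.5e-08).

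Insl5, the gene of insulin-like peptide 5, stood at -0.46, -0.94, 0.35 and -0.18 on control and at -1.70, -1.57, -1.13 and -2.35 on knockout arrays 1 to 4. The difference was -1.38 (limma adjusted p 0.040). That call was lost under 10 of 20 settings, with adjusted p from 0.0097 to 0.121; it was lost without control array 1, 3 or 4 and without knockout array 1, 2 or 4. On knockout array 1, where Pyy was above every control, Gcg was at background, Nts was at -3.86 and Insl5 was below every control. The high Pyy value on that array was therefore not shared by these 3 peptide genes.

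The other 5 tested genes of the list were not called. Ffar2 and Ffar3, receptors for short-chain fatty acids, differed by 0.39 and -0.29, Ffar4, a receptor for long-chain fatty acids, by 0.45, and Gpbar1, the bile acid receptor, by -0.19. Etv1, a transcription factor, differed by 0.10. Ffar1 and Gpr119 did not pass the filter. In bulk RNA, fewer cells of a type and less RNA per cell cannot be told apart.

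**Figure D3:**
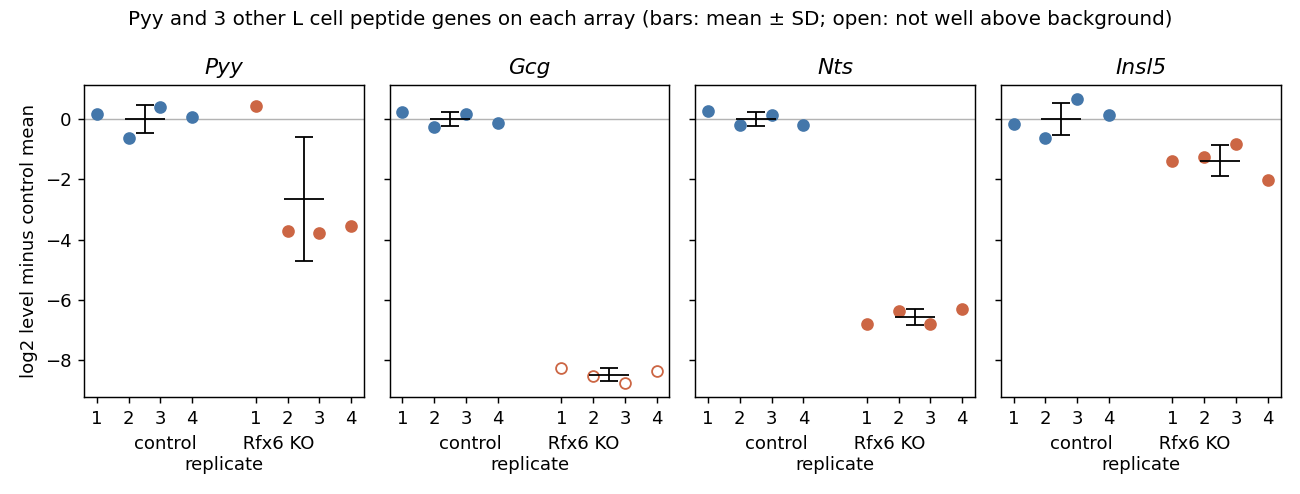
Log2 level minus the control mean for Pyy, Gcg, Nts and Insl5 on control (blue) and Rfx6 KO (orange) arrays 1 to 4, with mean and SD bars; open points were not well above background. Knockout array 1 lies above every control for Pyy and with the other knockout arrays for Gcg, Nts and Insl5.

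Markers of the pancreas and the large intestine, organs that also make peptide YY, were read on the same arrays. Of 11 exocrine pancreas markers, 9 passed the filter and 0 were called by limma, though 2 had an unadjusted p under 0.05; Pnlip and Ptf1a were not well above background on any array. Their summed signal was 35.9 times the 75th percentile on knockout array 1 and 16.3 to 21.8 on the other knockout arrays, and it ran from 18.0 to 46.0 on the controls. The array with high Pyy was thus also the knockout array with the most exocrine pancreas signal, and the part of this in the Pyy value was not tested. On control arrays 1 to 4 the sum was 46.0, 18.0, 36.4 and 20.6, beside Pyy signals of 1477, 888, 1682 and 1463. Array 2 had the lowest of both, while array 4 had nearly the Pyy of array 1 with a much lower exocrine sum. The part of exocrine pancreas in these control values was not tested either.

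Of 7 endocrine pancreas markers, 6 passed and 4 were called lower, Ins1, Ins2, Iapp and Ucn3, beside 2.59% of all genes tested. Ins1 and Ucn3 passed the filter through the controls alone. The summed signal of the 6 was 5.26 on knockout array 1 and 5.31 to 5.69 on the others, against 6.24 to 7.26 on controls. Ucn3 was not well above background on any knockout array and was at least 3.27-fold lower. Ins2 was at its lowest of all 8 arrays on knockout array 1, at -1.07. Ins1 read -4.74 there, below -4.365, the weakest level marked as well above background on that array, so this value is background. Iapp, at -3.82 on knockout array 1, was the highest of the knockout arrays but below every control. Ppy was not well above background there. Most of the summed signal was that of Mafa, a transcription factor of beta cells and no hormone, whose mean level was 2.26 on control and 2.22 on knockout arrays, so the sum says little of islet hormones. The part of endocrine pancreas in the Pyy values was not tested.

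Of 7 large intestine markers, 3 passed the filter, Car1, Car4 and Aqp8, and 1, Aqp8, was called lower. Hoxb13 and Hoxd12 were not well above background on any array, and Hoxa13 and Hoxd13 on 1 array each. The summed signal was 20.1 on knockout array 1, inside the range of 17.4 to 22 on the other knockout arrays and below the 29.8 to 34.7 of the controls. Aqp8 differed by -1.80, while Car4 and Car1, at -0.26 and -0.04, were not called, so the sum does not show a fall across the list. The 3 that passed are also expressed in the small intestine, and the part of large intestine in the Pyy values was not tested.

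**Figure D4:**
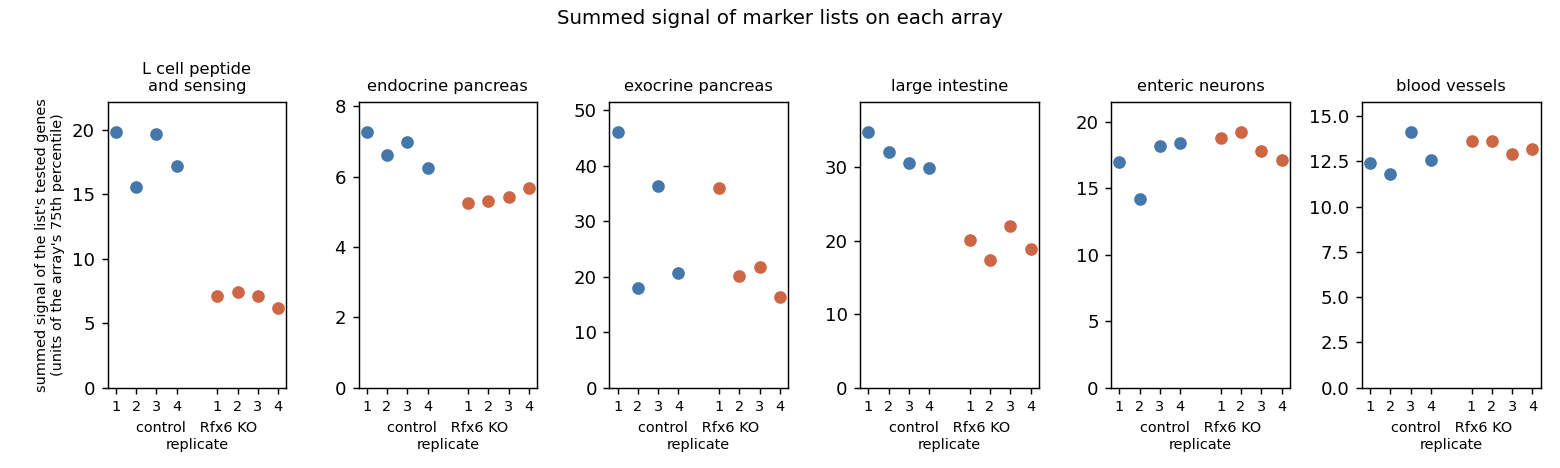
Summed signal of the tested genes of 6 marker lists on each array, in units of the 75th percentile of that array, with axes from 0; blue points are control and orange points Rfx6 KO arrays 1 to 4. The exocrine pancreas sum is 35.9 on knockout array 1 and at most 21.8 on the other knockout arrays.

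The genes whose levels followed Pyy most closely over the 8 arrays were Acap3 (Pearson r 0.945) and B4galnt1 (r 0.944), with 3 transcripts that carry no gene symbol (r 0.933 to 0.941). Their own differences were small, -0.09 for Acap3 and -0.28 for B4galnt1, and none was called. After the group means were removed, the closest were Spata31 (r 0.993) and Kdm4a (r 0.988), a histone demethylase gene, with 3 transcripts without a symbol (r 0.987 to 0.992). Kdm4a stood at 4.13 on knockout array 1, between 1.30 and 1.51 on the other knockout arrays and between 1.11 and 1.61 on controls. Spata31 stood at -0.61 there and between -3.12 and -2.79 on the other 7 arrays. With 8 arrays and 23282 genes such r values are a description. Those of the deviations pick out features that were high on that 1 array.

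Promoters of all 6 genes were in the RefSeq table for GRCm38, from 250 bases before to 50 after each start site, and were searched on both strands. The half-site GTTGCC, which RFX factors are known to bind, was found in the Npy1r promoter and in none of the other 5 genes, beside 12.5% of all 32851 promoters. It is shown because it is the family's 1 match; the half-site is on the opposite strand, so it reads GGCAAC here, in capitals, 143 bases upstream of the start site, in chr8:66697267-66697296 of GRCm38.
Npy1r: ccagaattcctaGGCAACgcacctccgagt
Paired half-sites, GTTNCC and GGNAAC at most 3 bases apart, were found in 0 of the 6 and in 0.80% of all promoters. The E-box CANNTG, the motif of basic helix-loop-helix factors, was found in Pyy, Npy1r, Npy2r and Npy5r and in 72.3% of all promoters. These are matches of letters within short windows.

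**Figure D5:**
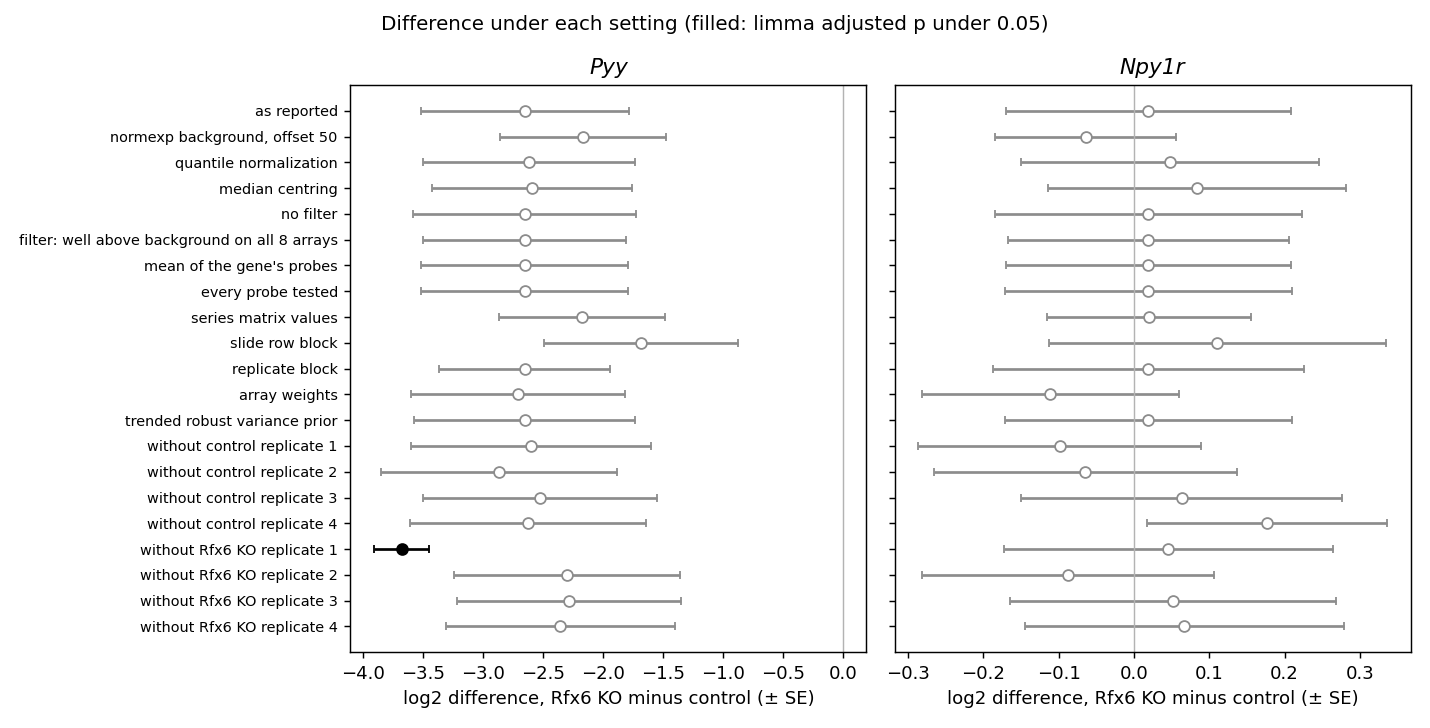
Log2 difference, knockout minus control, with standard error bars for Pyy (left) and Npy1r (right) as reported and under 20 other settings; filled points passed an adjusted p of 0.05. Pyy is negative throughout, from -3.68 to -1.69, and filled when knockout array 1 is left out; Npy1r lies between -0.11 and 0.18, on both sides of 0.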

How the data were processed

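Per the labels' protocols, RNA was extracted with TRI reagent and 100 ng was amplified and labelled with cyanine 3. Per the file headers, spots were read with Feature Extraction 10.10.1.1 on an mm9 grid. The deposited scanner files give each spot's intensity on a linear scale; the processed intensity has background subtracted and is not scaled between arrays. The deposited series matrix also holds intensity values, which followed the spot medians.

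Of 62976 spots per array, 3671 control spots were left out, and 153 to 355 outlier spots per array were set aside; none was saturated. Spots of a probe were averaged, scaled to the 75th percentile and taken to log2, and the probe with the highest mean stood for a gene. Symbols were updated with a GRCm38 gene table. The test was that of limma 3.58.1 (lmFit, eBayes; R 4.3.3), checked on simulated data. Correlations of same-numbered samples' deviations were -0.07, -0.17, 0.07 and -0.41. They showed no pairing by number but cannot exclude one, and samples were treated as unpaired. The number of arrays limits precision. The family, lists, likeness rule and motifs were chosen with earlier results of these data known. Genes named are the members, listed genes, and the 5 closest to Pyy by each correlation; Npy did not pass the filter. Alternatives are given in the closing section. 1 gene of the large intestine list is not reported here and is left out of its counts and sums.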

Additional observations from a re-analysis of the deposited data

Results flagged for a closer look

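In 54 groups of 4 values, for the tested family members and the genes of the processing, receptor and L cell lists, 2 (3.7%) held a value set apart from the rest by Dixon's criterion, which chance flags in about 2.7 of so many. Pyy was high on knockout array 1, at 1.41, while knockout arrays 2 to 4 ran from -2.78 to -2.56. Npy1r was high on knockout array 2, at -2.02, beside -2.48 to -2.42 for the rest of its group; that array was within the range of the controls.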

How the results depend on the processing

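Pyy and Npy1r were computed under 20 alternatives, and Pyy was lower in all of them. Leaving out 1 array moved the Pyy difference between -3.68 and -2.28, with the call gained without knockout array 1. With the replicate block, Pyy differed by -2.65 (limma adjusted p 0.173). Npy1r was negative with normexp background (-0.064), array weights (-0.11), and without control array 1 (-0.10), control array 2 (-0.064) or knockout array 2 (-0.09), and ran from -0.10 to 0.18 on leaving out 1 array. Genes called lower and higher numbered 602 and 543. They were 203 and 298 without the filter, which tests more genes, 148 and 268 with the replicate block and 1266 and 829 with array weights; median centring gave 253 lower. With 7 arrays, whichever was dropped, 217 to 587 were lower and 338 to 510 higher. The cause of the other changes was not tested. The processing list had 1 call, the receptor list 0 (limma) and the L cell list 2 to 4 under each alternative. Weak signal limits Npy, Ppy, Npy2r and Npy5r.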
